A study of Homo sapiens with 6 samples.

Results

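The insulin-like growth factor 2 mRNA-binding proteins IGF2BP1, IGF2BP2 and IGF2BP3, the let-7 inhibitors LIN28A and LIN28B, and the architectural chromatin proteins HMGA1 and HMGA2 were examined in REH cells with and without the ETV6/RUNX1 fusion transcript silenced. Members were all catalogue probes of the array whose RefSeq accession belongs to one of these 7 genes, out of 19721 genes named on catalogue probes. This gave 10 probes. A total of 6 probes, for 5 genes, were above background and could be tested, and 4 were not.

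REH is a cell line established from a B-cell precursor acute lymphoblastic leukemia (BCP-ALL) in which the translocation joins the first part of ETV6 to RUNX1. The labels give 3 arrays of REH cells with a non-targeting shRNA (control) and 3 arrays with an shRNA against the fusion (knockdown), 1 RNA sample per array. All 6 samples carried the fusion, had lost the second ETV6 allele, and were transduced with a lentivirus that carried a shRNA and GFP, with GFP-positive cells sorted a few days later. According to the study's methods, the control hairpin was also designed on ETV6 but did not hit the fusion transcript, so both groups received an ETV6 hairpin. The results thus rest on 1 hairpin per group in 1 cell line, and replicates are described as biological.

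As background, these genes form a program that is known from fetal tissues and is mostly silent in adult ones. IGF2BP proteins bind mRNAs, many of them marked by N6-methyladenosine (m6A), and protect them from decay. LIN28 proteins bind let-7 precursors and block their maturation, and mature let-7 in turn represses LIN28B, HMGA2 and IGF2BP mRNAs through sites in their 3′ untranslated regions. LIN28B and HMGA2 are known for their part in fetal blood stem cells and fetal lymphocyte production, and high IGF2BP1 is known from ETV6/RUNX1-positive leukemia.

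The let-7 family is shown here because it links the LIN28 genes to the other members. The arrays measured no mature microRNA, so the sequences are given as the shared regulator and carry no value. They are the human mature forms in RefSeq, 5′ to 3′, with the seed (bases 2 to 8) in capitals.
hsa-let-7a-5p: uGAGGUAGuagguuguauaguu
hsa-let-7b-5p: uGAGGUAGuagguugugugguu
hsa-let-7c-5p: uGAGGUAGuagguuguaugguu
hsa-let-7d-5p: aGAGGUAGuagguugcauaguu
hsa-let-7e-5p: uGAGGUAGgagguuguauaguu
hsa-let-7f-5p: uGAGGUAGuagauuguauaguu
hsa-let-7g-5p: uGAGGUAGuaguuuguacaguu
hsa-let-7i-5p: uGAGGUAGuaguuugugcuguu
hsa-miR-98-5p: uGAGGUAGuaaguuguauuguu
All 9 sequences have the seed GAGGUAG and a length of 22 bases, and they differ only outside the seed.

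Values below are normalized on a generalised log2 scale, which follows log2 for bright probes and compresses changes of dim ones. A probe was retained when it lay over a threshold set from the negative control spots on 2 of 3 arrays of a group, and 27490 probes were. Median raw intensity was 66 to 75 per array, against 42.25 to 48 for the negative control spots, and the scanner software flagged 45.8% to 50.9% of probes as well above background. Normalized values correlated with r from 0.986 to 0.996 between arrays, across probes. Groups were compared with limma, and a probe is said to be called at an adjusted p under 0.05 over all retained probes. Control replicates 1 and 2 lay in 1 row of the slide and the other 4 arrays in the other row, so slide row was partly tied to group.

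First, the labels were checked on the targeted gene. The ETV6 probe A_33_P3356325 measured 7.91, 8.05 and 8.37 on control replicates 1 to 3, and 7.49, 7.45 and 7.28 on knockdown replicates 1 to 3. The groups did not overlap, but the log2 fold change of -0.70 (SE 0.14) had an adjusted p of 0.0513 by limma and was not called. The other ETV6 probe was well above background on none of the arrays, and the 5 RUNX1 probes had log2 fold changes of -0.26 to 0.03, none of them called. Where these probes lie relative to the fusion point was not analysed here. The study itself assessed silencing of the fusion by western blot and RT-qPCR, which are not part of these arrays.

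Identity of the cells was checked with marker genes. Of 14 B-cell precursor markers, 13 were well above background on all 6 arrays, among them PAX5, EBF1, DNTT and RAG1, and none was called. The T-cell markers CD3E and CD3G, the myeloid markers CD33 and ELANE, and the erythroid markers AHSP and HBB reached that level on none of the arrays. Myeloid markers had a mean log2 value of 7.45 to 7.59 on control and 7.0 to 7.27 on knockdown arrays, and MPO was called. The part of this shift in the results below was not tested.

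Next, the level of each member against background was determined. IGF2BP1, IGF2BP2, IGF2BP3, HMGA1 and HMGA2 each had a probe well above background on all 6 arrays. The IGF2BP1 probe lay 7.71 to 8.77 log2 units over the threshold of its array, the IGF2BP3 probe 7.21 to 7.87 and the HMGA1 probe 8.63 to 9.32. Margins of the retained IGF2BP2 probe were 2.03 to 2.48. LIN28A was well above background on none of the arrays and LIN28B on 1 of 6. Probes differ in their binding, so these margins describe each probe and do not rank the genes.

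**Figure D1:**
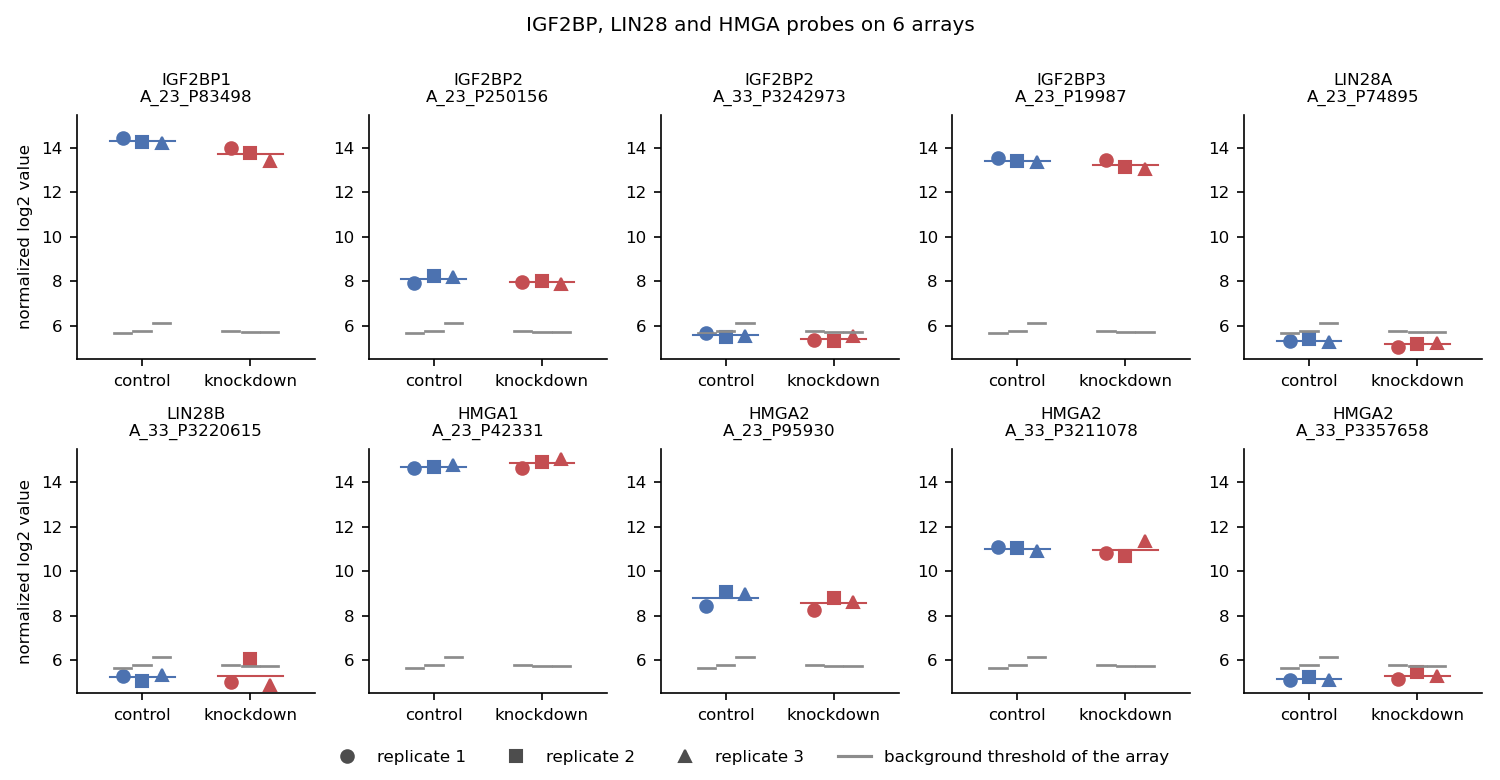
Normalized log2 value (y axis) of the 10 member probes on the 3 control (blue) and 3 knockdown (red) arrays, with symbols for the replicate number, colored lines for group means and grey ticks for the background threshold of each array. IGF2BP1 is the only retained probe whose groups do not overlap (13.42 to 14.0 on knockdown, 14.23 to 14.43 on control arrays), while LIN28A stays below the threshold on all 6 arrays.

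To find whether the program moved with the fusion, the 6 retained member probes were compared between groups. None of them was called, where 1.74% of all retained probes (478 of 27490) were, with 352 (1.28%) lower and 126 (0.458%) higher in knockdown. One probe, that of IGF2BP1, had an unadjusted p under 0.05, as did 12.5% of all retained probes. The same probe was the 1 of 6 whose groups did not overlap, against 18.9% of all retained probes in either direction and 9.85% lower in knockdown. With the replicate number as a block, IGF2BP1 was called, and it was the 1 member called in that fit. The block called 3.79% of all retained probes, 2.43% lower and 1.36% higher in knockdown. In total, 5 of the 6 estimates were negative, as were 50.3% of those of all retained probes, and that of HMGA1 was positive. The members had a median of -0.18 beside -0.001 over all retained catalogue probes. When arrays were scaled to the spike-in controls instead, the median of all probes moved to 0.38 and 5 of 6 member estimates were positive, but relative to that median every estimate except that of HMGA1 was negative. In total RNA of a culture, fewer cells that express a gene and less RNA per cell cannot be told apart.

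**Figure D2:**
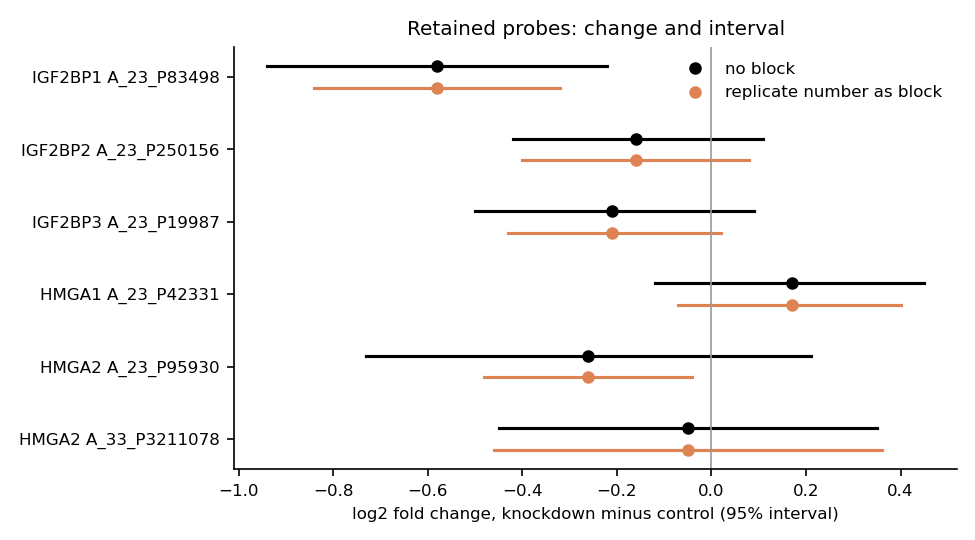
Log2 fold change (knockdown minus control, x axis) of the 6 retained member probes with 95% intervals, without a block (black) and with the replicate number as block (orange). Without a block, the interval of IGF2BP1 (-0.94 to -0.22) lies below 0 and the other 5 include 0.

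IGF2BP1 binds and stabilizes MYC, ACTB and other mRNAs and is the family member named for fetal and leukemic cells above. Its probe A_23_P83498 was designed on NM_006546 and was present in 5 spots per array. It measured 14.43, 14.25 and 14.23 on control replicates 1 to 3, and 14.0, 13.77 and 13.42 on knockdown replicates 1 to 3. Every knockdown array was below every control array, and knockdown replicate 3 was lowest. Group means were 14.31 ± 0.11 and 13.73 ± 0.29 (SD, n = 3 each). Knockdown cells thus held 67.0% of the control level on this scale, with a log2 fold change of -0.58 (SE 0.16, 95% interval -0.94 to -0.22).

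The IGF2BP1 difference had an unadjusted p of 0.00588 and an adjusted p of 0.149 by limma, and 3.93% of retained probes had a lower p. An exact permutation test of this probe gave a two-sided p of 0.1, the smallest that 3 arrays against 3 allow. Knockdown was lower in each of the 3 same-numbered pairs, by differences of -0.43, -0.49 and -0.82. With the replicate number as a block, the SE was 0.11 and the adjusted p 0.0431 by limma. The labels do not say whether same-numbered samples were paired. Among 17 alternative settings the block was the 1 in which IGF2BP1 was called, and the estimate kept its sign in all 17 (-0.71 to -0.20).

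The 5 spots of the IGF2BP1 probe gave a view of the technical error within an array. Their SD was 0.03 to 0.07 on each array, smaller than the SD between arrays of either group. Spots ran from 14.13 to 14.50 over the control arrays and from 13.34 to 14.08 over the knockdown arrays, with no overlap. One spot on knockdown replicate 2 carried an outlier flag and was left out.

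**Figure D3:**
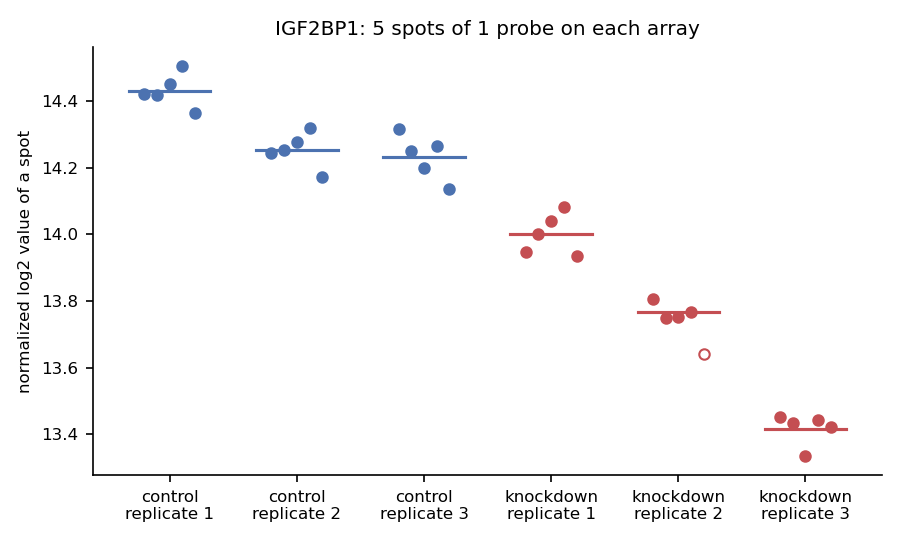
Normalized log2 value (y axis) of each IGF2BP1 spot on the 6 arrays, with lines for the mean of the spots used and an open circle for the spot with an outlier flag. Spots of 1 array lie close together, and the distances between knockdown arrays exceed the spread of spots within each.

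Before normalization between arrays, the scanner software's processed intensity of IGF2BP1 was 19833, 18543 and 19403 on control replicates 1 to 3. On knockdown replicates 1 to 3 it was 18156, 12067 and 9666. On this scale knockdown replicate 1 stood close to the control arrays and the other two were well below them. Leaving out knockdown replicate 1 gave a log2 fold change of -0.71 with an adjusted p of 0.0536 by limma, and leaving out knockdown replicate 3 gave -0.42. Within slide row 2 alone, which held control replicate 3 and all knockdown arrays, the estimate was -0.50 with an adjusted p of 0.853.

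**Figure D4:**
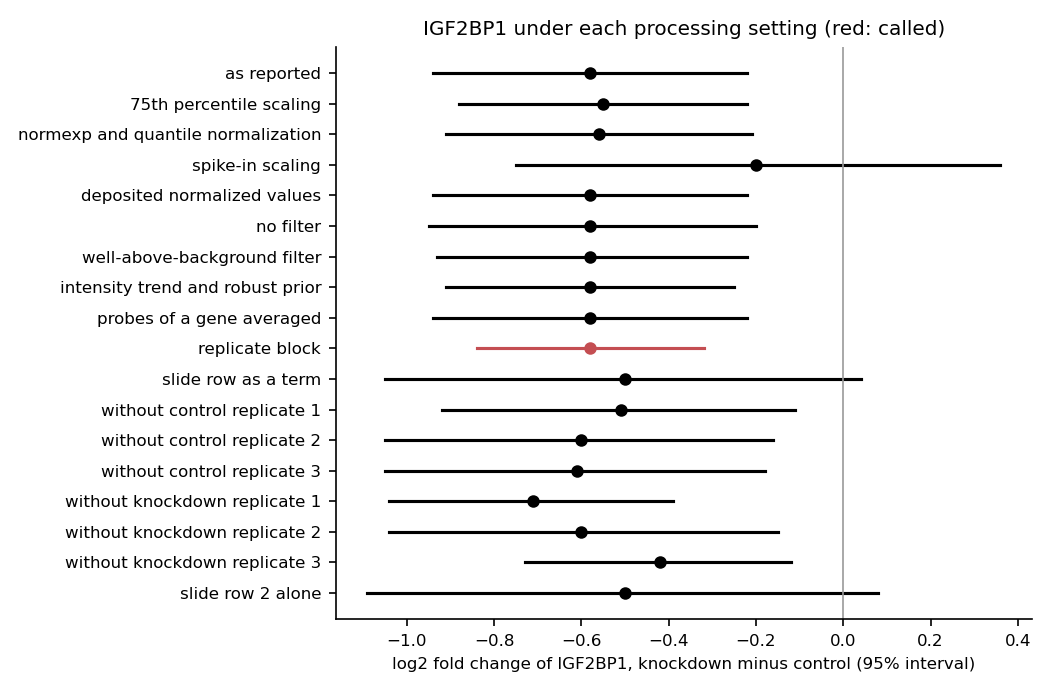
Log2 fold change of IGF2BP1 (knockdown minus control, x axis) with its 95% interval under each processing setting, with red for the setting in which it was called. Estimates run from -0.71 to -0.20, and the intervals with spike-in scaling, with slide row as a term and within slide row 2 include 0.

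IGF2BP3, the paralog with the closest oncofetal pattern, had probe A_23_P19987 (NM_006547). It measured 13.53, 13.39 and 13.36 on control replicates 1 to 3, and 13.45, 13.14 and 13.06 on knockdown replicates 1 to 3. Knockdown replicate 1 lay within the control range and the other two lay below it. The log2 fold change was -0.21 (SE 0.13, 95% interval -0.50 to 0.09) with an adjusted p of 0.566 by limma.

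IGF2BP2 is the family member that is also expressed in adult tissues, with known roles in metabolism. Its retained probe A_23_P250156 (NM_006548) measured 7.93, 8.25 and 8.18 on control replicates 1 to 3, and 7.96, 8.03 and 7.90 on knockdown replicates 1 to 3. The groups overlapped, and the log2 fold change was -0.16 (SE 0.11, 95% interval -0.42 to 0.11) with an adjusted p of 0.64 by limma. A second probe of the same transcript, A_33_P3242973, was well above background on 1 control and no knockdown array, with values between 5.32 and 5.67.

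The LIN28 genes, which encode the inhibitors of let-7 maturation, gave no measured level in most arrays. The LIN28A probe A_23_P74895 (NM_024674) measured 5.34, 5.39 and 5.28 on control and 5.07, 5.19 and 5.23 on knockdown replicates, all under the threshold. The LIN28B probe A_33_P3220615 (NM_001004317) measured 5.30, 5.04 and 5.35 on control and 5.0, 6.03 and 4.88 on knockdown replicates. Knockdown replicate 2 was well above background and 0.29 log2 units over its threshold, whereas the other 5 arrays were under theirs. Neither gene could be compared between groups, and transcripts below the detection of these probes are not excluded.

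HMGA1 encodes an AT-hook protein that bends DNA and is abundant in dividing cells. Its probe A_23_P42331 (NM_145901) measured 14.63, 14.67 and 14.78 on control replicates 1 to 3, and 14.63, 14.92 and 15.03 on knockdown replicates 1 to 3. Knockdown replicates 2 and 3 were above all control arrays, and replicate 1 was level with the lowest. The log2 fold change was 0.17 (SE 0.12, 95% interval -0.12 to 0.45) with an adjusted p of 0.645 by limma. With spike-in scaling, where the median of all probes was 0.38, it was 0.54 (adjusted p = 0.21 by limma).

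HMGA2, a let-7 target and regulator of fetal stem cell self-renewal, had 3 probes that did not give the same picture. Probe A_23_P95930 (NM_003483) measured 8.41, 9.05 and 8.98 on control and 8.25, 8.78 and 8.62 on knockdown replicates. Its log2 fold change was -0.26 (SE 0.20, 95% interval -0.73 to 0.21) with an adjusted p of 0.659 by limma, and knockdown was lower in 3 of 3 same-numbered pairs. Probe A_33_P3211078 (NM_003484) measured 11.06, 11.04 and 10.89 on control and 10.79, 10.69 and 11.36 on knockdown replicates. Here knockdown replicate 3 was the highest array and the other two were the lowest, and the log2 fold change was -0.05 (SE 0.17) with an adjusted p of 0.936 by limma. Probe A_33_P3357658, which carries the same accession, was well above background on none of the arrays, with values between 5.10 and 5.48. At A_23_P95930, removal of control replicate 1 gave -0.46 and removal of knockdown replicate 1 gave -0.11.

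Other genes of the pathway were taken from lists. Over all named catalogue genes, 330 of 17598 retained probes were called and 2351 had an unadjusted p under 0.05. The median log2 fold change with 1 probe per gene was 0.01, and 48.6% of genes were lower in knockdown. In all lists together 3 genes were called, namely CCND2, GLI1 and GPNMB.

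Factors that cut, export, tail or degrade let-7 precursors, such as DROSHA, DICER1, TUT4 and DIS3L2, were all measured. None of the 30 retained probes of the 20 genes was called, and 1 had an unadjusted p under 0.05. The list median was 0.02, with 9 genes lower and 11 higher. TRIM71, a stem cell ubiquitin ligase and RNA-binding protein that is itself repressed by let-7, had the lowest p. It measured 5.38, 5.26 and 5.41 on control and 5.86, 6.68 and 5.80 on knockdown replicates. TRIM71 was well above background on 0 control arrays and on 3 knockdown arrays. It was thus retained only through the group in which it was higher, so its p does not test the difference. The log2 fold change was 0.76 (95% interval 0.25 to 1.27) with an adjusted p of 0.19 by limma. Knockdown replicates 1 and 3 lay just over their thresholds of 5.76 and 5.71. The bound on the fold was 1.66, which allows for the background level but not for the spread between arrays. Knockdown replicate 2 stood highest, and without it this bound was 1.36-fold. The fitted log2 fold change ran from 0.45 with normexp and quantile normalization to 2.03 with spike-in scaling. DICER1, the nuclease that releases mature microRNA, had a log2 fold change of -0.22 with an adjusted p of 0.429 by limma.

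Host transcripts of let-7 were retained for 3 of the 4 genes with a named catalogue probe. Of their 6 probes, 0 were called and 1 had an unadjusted p under 0.05. MIR99AHG, from which let-7c is cut, measured 7.77, 7.53 and 7.36 on control and 7.07, 6.91 and 6.85 on knockdown replicates at probe A_33_P3312384. The groups did not overlap, and the log2 fold change of -0.61 (SE 0.13) had an adjusted p of 0.0721 by limma, or 0.0196 with the replicate block. The estimate was -0.37 with spike-in scaling (adjusted p = 0.311), -0.42 within slide row 2 (0.778) and -0.42 when slide row was added to the model (0.644). A second MIR99AHG probe, A_24_P229536, overlapped between groups with a log2 fold change of -0.21 and an adjusted p of 0.697. HUWE1, a ubiquitin ligase gene with let-7f and miR-98 in an intron, had log2 fold changes of 0.17 and -0.20 at its probes, with adjusted p-values of 0.518 and 0.69 by limma.

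Among let-7 targets other than the members, 27 of 32 genes were retained with 36 probes. One probe was called, lower in knockdown, and 10 had an unadjusted p under 0.05. The list median was -0.11, with 18 genes lower and 9 higher. The called gene was CCND2, encoding the cell cycle regulator cyclin D2. It measured 10.05, 9.32 and 8.95 on control replicates 1 to 3, and 7.93, 6.70 and 6.69 on knockdown replicates 1 to 3. CCND2 thus fell by 2.33 on the log2 scale (SE 0.38, adjusted p = 0.025 by limma), with no overlap between groups. ACVR1C, an activin receptor, had a log2 fold change of -0.69 (adjusted p = 0.191 by limma), and the replicate block was the 1 of its alternatives that called it (adjusted p = 0.0199). The estimate was -1.31 with scaling to the 75th percentile and -0.35 both with slide row as a term and within slide row 2. ACVR1C was over the threshold on 5 of 6 arrays, with margins of -0.11 to 1.31, so its change was measured near background.

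The log2 fold change of CCND2 stayed at -2.74 to -2.03 without any 1 array. Its call was lost without control replicate 1 (adjusted p = 0.0589), control replicate 2 (0.0956), knockdown replicate 2 (0.108) or knockdown replicate 3 (0.124), all by limma. It was also lost with scaling to the 75th percentile (adjusted p = 0.0614) and with an intensity trend and robust prior (0.0765), and it was kept with the replicate block (0.00108) and spike-in scaling (0.000157). Within slide row 2 the log2 fold change was -1.84 with an adjusted p of 0.275 by limma.

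Known client mRNAs of the IGF2BP proteins were retained for 17 of 21 genes with 24 probes. One was called, higher in knockdown, and 4 had an unadjusted p under 0.05. The list median was 0.00, with 8 genes lower and 9 higher, while IGF2, the client for which the family is named, and H19 were not retained. GLI1, the transcription factor of hedgehog signalling, measured 7.31, 7.36 and 7.20 on control replicates 1 to 3, and 7.84, 7.78 and 7.91 on knockdown replicates 1 to 3. GLI1 thus rose by 0.56 on the log2 scale (SE 0.10, adjusted p = 0.033 by limma). With spike-in scaling, where the median of all probes was 0.38, the GLI1 estimate was 1.04 (adjusted p = 0.0184 by limma). With slide row as a term it was 0.65 and not called (adjusted p = 0.156 by limma). FSCN1, encoding an actin-bundling protein, had a log2 fold change of -0.45 (adjusted p = 0.0588 by limma). It was called with the replicate block (adjusted p = 0.048), with normexp and quantile normalization (0.0342) and with an intensity trend and robust prior (0.027). With spike-in scaling the estimate was -0.03 (adjusted p = 0.924 by limma), and with slide row as a term the adjusted p was 0.445.

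The GLI1 call was lost without any 1 of the 6 arrays while the log2 fold change stayed at 0.51 to 0.59, with adjusted p-values from 0.0539 (without knockdown replicate 1) to 0.135 (without control replicate 3) by limma. Within slide row 2 the log2 fold change was 0.65 with an adjusted p of 0.288 by limma.

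Proteins that share ribonucleoprotein particles with the IGF2BPs, together with writers, readers and erasers of m6A, were retained for all 30 genes. None of their 46 probes was called and 1 had an unadjusted p under 0.05. The list median was -0.07, with 21 genes lower and 9 higher, and 1 probe per gene stayed within -0.23 and 0.18. FMR1, an RNA-binding protein of neuronal granules, had log2 fold changes of 0.26 and -0.01 at its probes (adjusted p = 0.328 and 0.974 by limma). FTO, an m6A eraser, had 0.18 and 0.04 (adjusted p = 0.465 and 0.926 by limma).

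Other high mobility group genes were retained for 14 of 15 genes with 21 probes, none of them called and none with an unadjusted p under 0.05. Their median was -0.02. HMGN4, a nucleosome-binding protein, had a log2 fold change of 0.23 (adjusted p = 0.533 by limma), which ran from 0.13 without knockdown replicate 1 to 0.32 over the single-array removals and was 0.07 with slide row as a term. TFAM, which packages mitochondrial DNA, had -0.20 and -0.13 at its probes (adjusted p = 0.548 and 0.631).

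Further fetal blood and oncofetal genes were retained for 12 of 19 genes with a named catalogue probe. Of their 16 probes, 0 were called and 3 had an unadjusted p under 0.05. The list median was 0.02. AFP, HBE1, SOX17, IGF2 and H19 were among the 7 that were not retained. Apart from TRIM71, the lowest p was that of PLAG1, a zinc finger transcription factor, which measured 12.0, 11.85 and 11.81 on control and 11.69, 11.55 and 11.51 on knockdown replicates. Its log2 fold change of -0.30 had an adjusted p of 0.274 by limma.

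To see whether regions around the members moved, the 3 nearest protein-coding genes on each side of every member were taken from the gene order of RefSeq. Of these 42 genes, 32 were retained with 45 probes, 1 of which was called and 4 of which had an unadjusted p under 0.05. The median was -0.05, with 21 genes lower and 11 higher. The called neighbor was GPNMB, a membrane glycoprotein gene next but one to IGF2BP3. It measured 7.01, 6.84 and 6.89 on control replicates 1 to 3, and 6.42, 5.92 and 5.93 on knockdown replicates 1 to 3. GPNMB thus fell by 0.82 on the log2 scale (SE 0.15, adjusted p = 0.0392 by limma). Its values lay only 0.18 to 1.35 log2 units over the threshold of the array, so the size of the fall was measured near background. The other 5 neighbors of IGF2BP3 were retained and not called.

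Of the 6 arrays, only the removal of knockdown replicate 1 left GPNMB called, with an adjusted p of 0.00576 by limma. It was 0.119, 0.133 and 0.122 without control replicates 1, 2 and 3, and 0.159 and 0.162 without knockdown replicates 2 and 3, while the log2 fold change stayed at -0.98 to -0.74 over the 6 removals. Within slide row 2 the log2 fold change was -0.80 with an adjusted p of 0.432 by limma, with scaling to the 75th percentile it was -1.34, and with normexp and quantile normalization -0.51. The call was also lost with the latter (adjusted p = 0.051) and with spike-in scaling (0.0507).

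Of 7 antisense and pseudogene transcripts of the members, 1 had a catalogue probe that could be named. The custom lncRNA probes of the array were not searched for such transcripts, and the study places lnc-GIP-1 antisense to IGF2BP1. RPSAP52, a pseudogene transcript that runs antisense to HMGA2, measured 14.08, 13.93 and 13.87 on control and 13.86, 13.69 and 14.07 on knockdown replicates. The groups overlapped, with a log2 fold change of -0.09 and an adjusted p of 0.824 by limma.

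**Figure D5:**
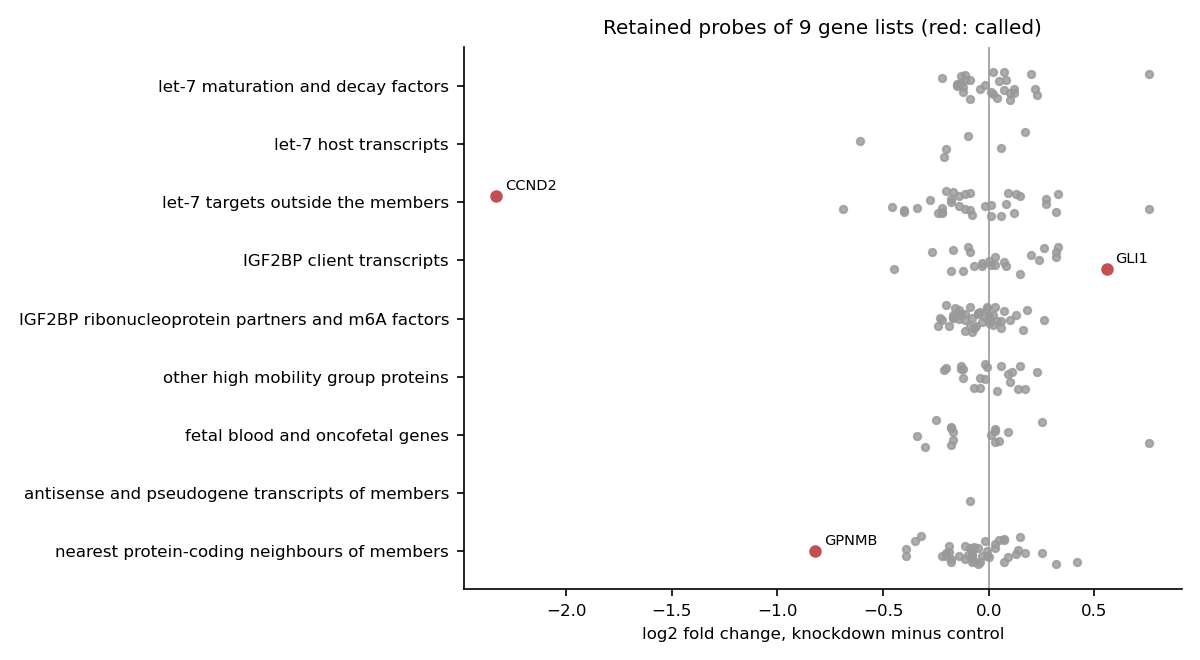
Log2 fold change (knockdown minus control, x axis) of each retained probe in the 9 gene lists (rows), with red for called probes. CCND2 (-2.33) lies far from the other let-7 targets, and GLI1 (0.56) and GPNMB (-0.82) are the other called genes.

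Finally, genes with the most similar pattern over the 6 arrays were sought among 13644 genes with 1 probe each. For IGF2BP1 these were PPP1R16B (Pearson's r = 0.997), FBXW12 (0.996) and MLKL (0.994). For IGF2BP3 they were VCPIP1 (0.999), CCDC92 (0.998) and STAP2 (0.997). For IGF2BP2 they were PCYOX1L (0.988), ARPP21 (0.988) and NDUFAF5 (0.986). For HMGA1 they were LCE1A (0.997), GTSE1 (0.992) and JUNB (0.991). For HMGA2, at probe A_33_P3211078, they were AREL1 (0.997), ZNF32 (0.993) and RAP1B (0.985). None of these 15 genes was called, and the points share arrays, slide and groups. Over these 6 points, r exceeded 0.9 for 491 genes with IGF2BP1, 107 with IGF2BP2, 656 with IGF2BP3, 350 with HMGA1 and 69 with HMGA2.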

How the data were processed

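Expression was measured on 6 one-color Agilent arrays (3 control, 3 knockdown). The authors labelled total RNA with Cy3 and extracted spot intensities with Feature Extraction 10.7.1.1. Per the file headers and values, these deposited intensities were not normalized between arrays. A deposited table of normalized log2 values (27869 probes) served as an alternative and correlated with the values used here at r from 0.99906 to 0.99967. The study's methods name VSN, background subtraction, a filter on negative controls and limma.

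The VSN model was written anew, fitted with the 0.9 quantile of least squares kept, and run on raw median intensities. Spots flagged as outliers were dropped, saturation did not occur, and the remaining spots were averaged by probe. Retained probes exceeded, after normalization, 1.1 times the 0.95 quantile of 308 negative control spots in at least 60% of a group's arrays. The methods name no scale for this rule. On the normalized scale, 97.4% of the deposited probes were retained and 98.7% of retained probes were deposited, against 100.0% and 85.7% on the raw scale, and the normalized scale was used. The comparison used limma 3.58.1 under R 4.3.3 (two-sided, no block), with Benjamini-Hochberg adjustment over all 27490 retained probes. The fit was tested on simulated data. A bound on a fold sets the bright group's mean against the higher of the dim probe's value and the lowest value well above background on each array. With 3 arrays per group, their number limits the precision.

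Same-numbered samples deviated together (correlations of 0.426, 0.287 and 0.204 over probes). Those of replicates 2 and 3 across numbers were 0.187 and 0.17, and those of replicate 1 with the others were negative. The 3 same-numbered pairs each passed a rule of over 0.1, and the replicate block was run as an alternative. Cross-numbered pairs of replicates 2 and 3 passed it too, so the rule did not single out pairing by number. The labels state no shared batch, and all arrays were on 1 slide and in 1 scan. Genes were named through a RefSeq table (GRCh38.p14), which matched 25728 of 34134 catalogue probes (75.4%). The array design used hg19, so no coordinates are given. Members and lists were chosen with earlier results of these data known. All member probes are named, and from each list the called genes or else the 2 of lowest p. ACVR1C, FSCN1 and genes listed as not retained were named after their values were seen. Alternatives were other scalings, filters, tests, a replicate block, slide row and leaving out each array.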

Additional observations from a re-analysis of the deposited data

How the results depend on the processing

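The replicate block gave IGF2BP1 the same log2 fold change of -0.58 and an adjusted p of 0.0431 (limma), and so 1 member called in place of 0, 1041 of all probes in place of 478, and 6 list genes' probes in place of 3. It changed no other call of a member. Scaling to the spike-in controls turned IGF2BP2 to 0.22, IGF2BP3 to 0.17, HMGA2 to 0.12 (A_23_P95930) and 0.36 (A_33_P3211078), DICER1 to 0.20, TFAM to 0.14, PLAG1 to 0.10 and RPSAP52 to 0.27, and called 1033 probes (251 lower, 782 higher, against 352 and 126). HMGA2 at A_33_P3211078 also changed sign with 75th percentile scaling (0.00), with slide row as a term (0.06), within slide row 2 (0.06), and without knockdown replicate 1 (0.03) or 2 (0.07), and ran from -0.26 to 0.07 over the single-array removals. RPSAP52 was at 0.00 with slide row as a term, within slide row 2 and without knockdown replicate 2, and ran from -0.19 to 0.00 over the single-array removals, and HUWE1 at -0.02 with probes of a gene averaged. Calls over all probes numbered 224 with no filter, 227 with slide row as a term and 199 within slide row 2, and 0 list probes were called in each of these. Without 1 array, calls ran from 191 (control replicate 2) to 553 (knockdown replicate 1), with 282 and 258 without control replicates 1 and 3, and 214 and 205 without knockdown replicates 2 and 3. List calls ran from 0 to 2. Log2 fold changes without 1 array were -0.25 (control replicate 1) to -0.09 (control replicate 2) for IGF2BP2, and, with knockdown replicates 1 and 3 at the ends, -0.32 to -0.13 for IGF2BP3 and 0.28 to 0.08 for HMGA1. The cause of these differences was not tested. TRIM71, retained only through its knockdown arrays, was called with spike-in scaling (adjusted p = 0.000437 by limma), which for that reason does not test the difference. ETV6 was called with the filter on the scanner's flag and with the trend and robust prior. The analysis within slide row 2 was chosen after seeing the data. It assumes that its lone control array varies as the knockdown arrays do. LIN28A and LIN28B were limited by signal over background.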
